A study of Homo sapiens with 34 samples.

Results

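The genes described here are 10 genes of the folding machinery of the endoplasmic reticulum (ER): HSPA5, HSP90B1, XBP1, DNAJB9, HERPUD1, PDIA4, PDIA6, CALR, SDF2L1 and EDEM1. They were taken by gene symbol from the RNA-seq table, where they were 10 of 28071 listed genes, and by the same gene identifiers from the RNA immunoprecipitation (RIP) table, where they were 10 of 25035. The cells were LNCaP, an established human prostate cancer line that grows in response to androgen. AI denotes the androgen-independent cells, kept in RPMI1640 with serum stripped of steroids by charcoal, and AD the androgen-dependent cells, kept in RPMI1640; growth type and medium therefore change together and cannot be told apart. RNA-seq of polyadenylated RNA covered AI and AD cells in 3 states, transfected with siRNA against EZH2 (siEZH2), transfected with a mock siRNA, or untreated, with 2 libraries for each of the 6 groups. All transfected libraries were listed at the same number of hours, and the untreated ones without a time. Effects of either siRNA at other times were therefore not tested. EZH2 is the enzyme that places the repressive histone mark H3K27me3, and its siRNA and the mock siRNA were delivered with Lipofectamine 2000. RIP after ultraviolet crosslinking used an antibody to EZH2 or control IgG in AI and AD cells, with 2 libraries a group. Chromatin immunoprecipitation (ChIP) gave 7 peak lists, 4 for H3K27me3 and 3 for EZH2. The treatment notes name LNCaP/abl, an androgen-independent LNCaP line, as the transfected cells, although siRNA names also stand in titles of AD libraries; samples were grouped by title, and the values of transfected AD cells hold only if those titles are right.

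Proteins that enter the ER are folded by chaperones, given disulfide bonds by protein disulfide isomerases and, when folding fails, exported for destruction by ER-associated degradation. When unfolded proteins build up, the sensors IRE1 (gene ERN1), ATF6 and PERK (gene EIF2AK3) start the unfolded protein response: IRE1 splices XBP1 mRNA so that it encodes an active transcription factor, ATF6 is cut to release another, and PERK slows translation and favours ATF4. XBP1 and ATF6 then raise chaperones and degradation factors, and luminal prostate cells, which secrete much protein, carry a large ER. The values here are per gene, so spliced and unspliced XBP1 mRNA are not told apart.

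The promoters of these genes are known for short elements to which ATF6 and XBP1 bind together with the CCAAT factor NF-Y, and the sequences of these elements are shown because the genes are known for them. All 10 genes had an entry in the RefSeq promoter table (GRCh38.p14), and the 250 bases before each listed start were searched on both strands. The ER stress response element was searched as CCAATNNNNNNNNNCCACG and lay in 22 of the 22132 promoters searched (0.0994%). It was found in 5 of the 10 genes, HSPA5, HSP90B1 with 2 matches, CALR, PDIA6 and XBP1. The shorter element II, searched as ATTGG, then N for any 1 base, then CCACG, lay in 14 of the 22132 promoters (0.0633%), among them HERPUD1 and SDF2L1. DNAJB9, PDIA4 and EDEM1 held neither string. The parts of these elements are common: CCAAT lay in 32.7% of promoters, CCACG in 38.2% and ACGTG, the core of the unfolded protein response element, in 20.2%. These strings overlap, since the elements contain CCAAT and CCACG, and ACGTG can run into CCACG. Element II was added to the search after the other strings were fixed. DNAJB9 held 2 CACGTG sites, and HSP90B1 and HERPUD1 held 1 each; every such site matches ACGTG on both strands. These genes are textbook targets of the response, so the matches are a description, and no match says only that these letters are not in this window. Below, capitals mark the outer bases of an ER stress response element or element II, or CACGTG in DNAJB9 (the CACGTG site of HERPUD1 is left in lower case); each run is given 5′ to 3′ on the strand of the gene, and the first 4 are the full 250 bases.
HSPA5, chr9:125241344-125241593, minus strand: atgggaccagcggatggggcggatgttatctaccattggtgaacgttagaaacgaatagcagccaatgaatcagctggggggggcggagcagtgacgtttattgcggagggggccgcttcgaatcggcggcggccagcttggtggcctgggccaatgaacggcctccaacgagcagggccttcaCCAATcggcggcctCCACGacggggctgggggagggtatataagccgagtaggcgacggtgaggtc
XBP1, first listed start, chr22:28800570-28800819, minus strand: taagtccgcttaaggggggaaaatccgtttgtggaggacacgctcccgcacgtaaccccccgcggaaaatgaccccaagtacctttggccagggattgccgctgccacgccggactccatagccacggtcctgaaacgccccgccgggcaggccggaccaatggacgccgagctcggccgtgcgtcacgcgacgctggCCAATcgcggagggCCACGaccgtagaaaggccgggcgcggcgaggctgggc
HERPUD1, chr16:56931892-56932141, plus strand: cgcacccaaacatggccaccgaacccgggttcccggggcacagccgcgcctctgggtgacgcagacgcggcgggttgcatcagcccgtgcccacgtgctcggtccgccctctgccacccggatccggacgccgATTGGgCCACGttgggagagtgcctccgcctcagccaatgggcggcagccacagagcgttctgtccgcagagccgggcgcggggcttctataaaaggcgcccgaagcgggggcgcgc
DNAJB9, chr7:108569624-108569873, plus strand: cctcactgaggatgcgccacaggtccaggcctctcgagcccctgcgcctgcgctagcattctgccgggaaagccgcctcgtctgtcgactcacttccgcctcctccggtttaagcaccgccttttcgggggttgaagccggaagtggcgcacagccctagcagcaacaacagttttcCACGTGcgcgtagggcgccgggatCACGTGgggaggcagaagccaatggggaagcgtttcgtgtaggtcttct
HSP90B1, distal element, chr12:103930216-103930234, plus strand: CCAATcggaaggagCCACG
HSP90B1, proximal element as its reverse complement, chr12:103930321-103930339, plus strand: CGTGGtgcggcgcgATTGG
CALR, element as its reverse complement, chr19:12938384-12938402, plus strand: CGTGGtcgaccatcATTGG
PDIA6, second listed start, chr2:10812853-10812871, minus strand: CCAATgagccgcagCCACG
SDF2L1, element II as its reverse complement, chr22:21642114-21642124, plus strand: CGTGGaCCAAT

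The last base of the element lay 34 bases before the first listed start of XBP1, 48 before that of HSPA5 and 68 before the second listed start of PDIA6. In HSP90B1 the 2 elements ended 176 and 71 bases before the start, in CALR 207 bases before it. Element II ended 107 bases before the start of HERPUD1 and 178 before that of SDF2L1.

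**Figure D1:**
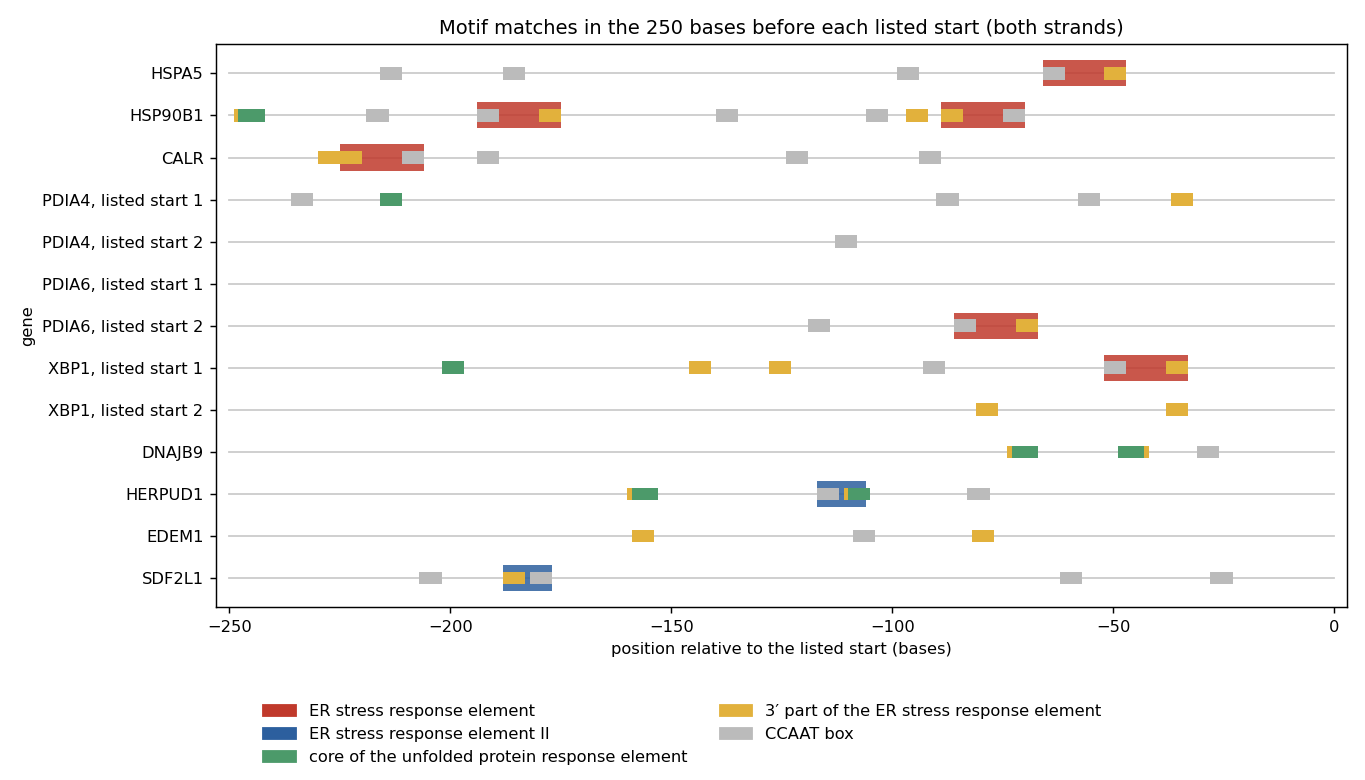
Motif matches in the 250 bases before each listed start, in bases relative to the start (horizontal axis), with 1 line per listed start; tall red blocks are ER stress response elements, tall blue blocks element II, and small blocks the single parts. Red or blue blocks appear in 7 of the 10 genes and none in PDIA4, DNAJB9 and EDEM1.

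Depth was estimated from the steps between low RPKM values (reads per kilobase of gene, scaled to the mapped reads of the library). It was 17.4 to 57.8 M reads (M for mega) in the 4 untreated RNA-seq libraries and 7.56 to 12.7 M in the 8 transfected ones, 4.70 to 8.14 M in EZH2 RIP and 0.0814 to 1.89 M in IgG RIP. Mitochondrially encoded genes took 18.4 to 33.5% of the summed RPKM in untreated libraries and 2.10 to 4.07% in transfected ones. Untreated and transfected libraries thus stand apart, and transfection and library set cannot be told apart. The luminal prostate markers KLK3, KLK2, HOXB13, FOLH1, KRT8 and KRT18 were detected in all 12 libraries, with 1286 to 5055 RPKM for KLK3, the most abundant of them, and 12.7 to 72.8 RPKM for FOLH1, the least abundant. The blood markers PTPRC and CD68 summed to at most 0.09 RPKM and the basal markers to at most 4.56 RPKM, with KRT5 at 0 in both libraries of 5 of the 6 groups. The stromal and endothelial markers (COL1A1, PDGFRB, PECAM1, VWF) summed to 1.53 to 3.11 RPKM in AI and 3.45 to 6.19 RPKM in AD libraries. Of the markers of plasma cells, which are rich in ER chaperones, MZB1 reached at most 0.64 RPKM, while SDC1, which epithelial cells also express, reached 45.3 RPKM; their sum was 6.26 to 23.3 RPKM in AI and 15.2 to 45.3 RPKM in AD libraries. The part of these other cell types in the results was not tested. EZH2 stood at 3.60 and 4.33 RPKM in AI cells with siEZH2, against 7.07 and 5.44 RPKM in AI cells with mock siRNA. In AD cells it stood at 11.5 and 10.7 RPKM with siEZH2, against 10.9 and 12.5 RPKM with mock siRNA. The change of EZH2 did not pass the test in AI cells (log2 change -0.59, adjusted p = 0.126) or in AD cells (-0.07, adjusted p = 1.00; limma). In AI cells both siEZH2 values lay below both mock values, as for 32.4% of all genes in this direction, and the unadjusted p was under 0.05 (limma). In AD cells the values overlapped. A drop of the siRNA target thus did not pass the test in either kind of cell.

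The 10 genes spanned 3 orders of magnitude, and CALR led in every group. CALR, the lectin chaperone calreticulin that folds glycoproteins and holds calcium, ranged over 1204 to 3438 RPKM and was the gene of rank 3 to 37 among all genes of a library. HSP90B1, the ER Hsp90 (GRP94), followed with 252 to 812 RPKM. PDIA4 and PDIA6, disulfide isomerases, HSPA5, the ER Hsp70 (BiP) that also holds the stress sensors inactive, and XBP1 lay between 55.9 and 252 RPKM. SDF2L1, a partner of the HSPA5 cochaperones, had 27.9 to 69.8 RPKM and HERPUD1, a membrane protein of the degradation complex, 12.2 to 25.8 RPKM. DNAJB9, an HSPA5 cochaperone that represses IRE1, and EDEM1, which hands misfolded glycoproteins to degradation, came last with 3.66 to 10.7 and 2.25 to 7.10 RPKM. RPKM is per length, so these levels can be compared between genes. In untreated AI cells PDIA4 and HSPA5 overlapped, as did PDIA6 and XBP1; in untreated AD cells PDIA6 and HSPA5 overlapped. In transfected AI cells PDIA4 and PDIA6 overlapped in both states, and in transfected AD cells no neighbours in the order did. XBP1 ranked sixth in untreated cells of both kinds and above the isomerases in transfected AI cells.

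**Figure D2:**
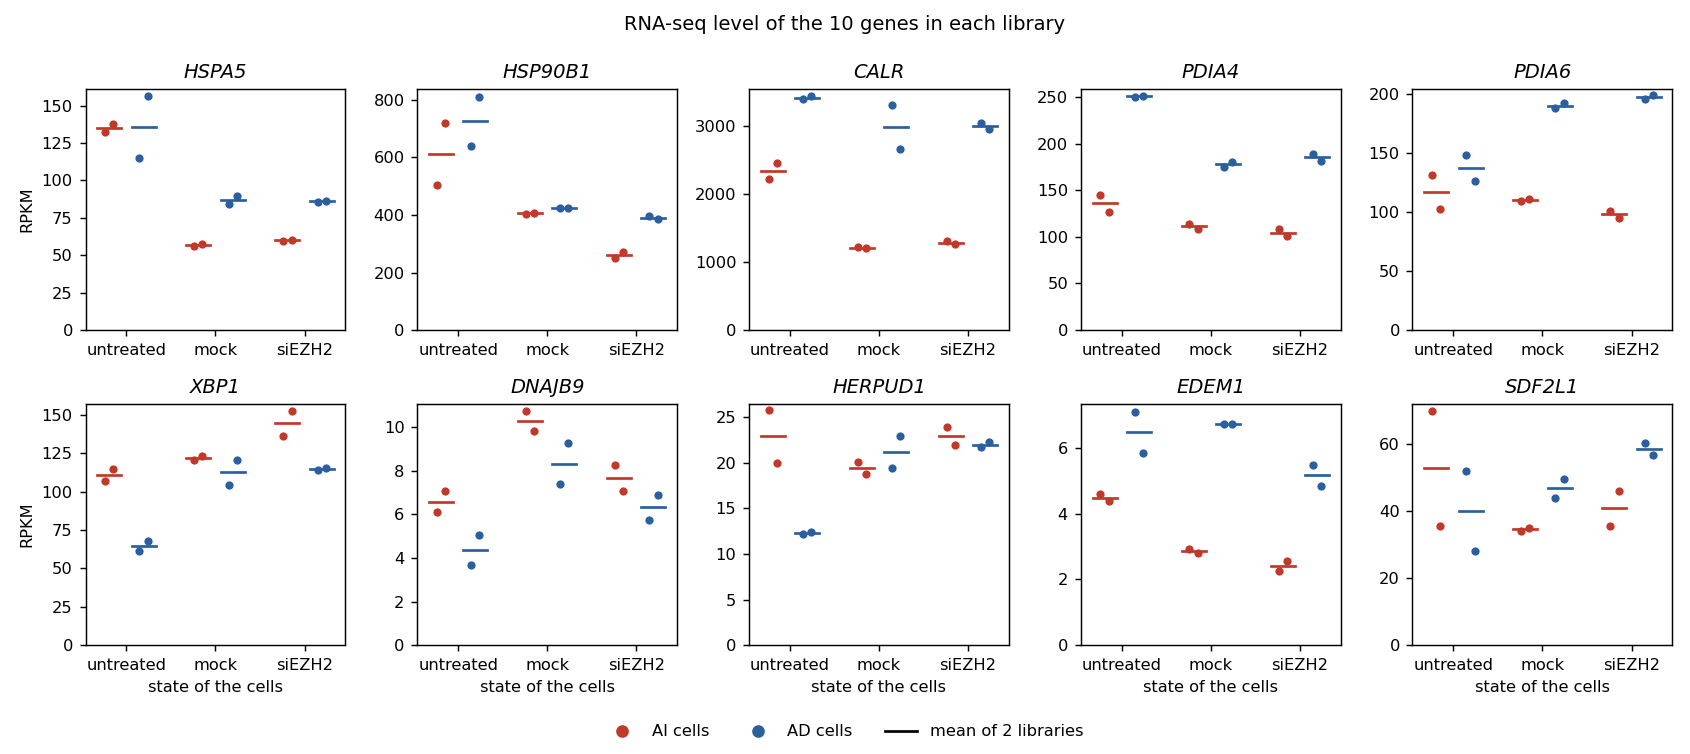
RPKM (vertical axes, each starting at 0) of the 10 genes in the 12 RNA-seq libraries, for AI cells (red) and AD cells (blue) in each state; points are libraries and lines the means of 2. CALR, PDIA4 and EDEM1 are lower in AI than in AD cells in every state. XBP1 and DNAJB9 are higher in AI cells in every state and HERPUD1 in untreated cells. Of the differences of XBP1 and DNAJB9 in transfected cells, only that of XBP1 with siEZH2 passed the test.

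In untreated cells the 10 genes split in AI against AD cells. XBP1, HERPUD1 and DNAJB9 were higher in AI cells, PDIA4, CALR and EDEM1 were lower, and the other 4 did not pass the test. In bulk RNA, fewer cells of a kind and less RNA per cell cannot be told apart. XBP1, the transcription factor of the IRE1 branch, had 107 and 115 RPKM in AI cells, against 61.3 and 67.8 RPKM in AD cells. HERPUD1 had 25.8 and 20.0 RPKM in AI cells, against 12.2 and 12.4 RPKM in AD cells. DNAJB9 had 6.09 and 7.06 RPKM in AI cells, against 3.66 and 5.05 RPKM in AD cells. The groups did not overlap for any of these 3 genes, as for 37.6% of all genes in this direction, and the AI mean was 1.715, 1.86 and 1.51 times the AD mean for XBP1, HERPUD1 and DNAJB9. On the log2(RPKM + 0.5) scale the changes were 0.77 ± 0.11 for XBP1 (SE, n = 2 libraries each, limma adjusted p = 0.00072), 0.85 ± 0.14 for HERPUD1 (adjusted p = 0.00136) and 0.55 ± 0.18 for DNAJB9 (adjusted p = 0.0376).

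PDIA4 showed the lowest log2 change of the 10 genes. It had 145 and 127 RPKM in AI cells, against 250 and 252 RPKM in AD cells, a log2 change of -0.88 ± 0.10 (adjusted p = 0.000205, limma). CALR had 2222 and 2449 RPKM in AI cells, against 3397 and 3438 RPKM in AD cells, a log2 change of -0.55 ± 0.13 (adjusted p = 0.0114). EDEM1 had 4.59 and 4.37 RPKM in AI cells, against 7.10 and 5.85 RPKM in AD cells, a log2 change of -0.48 ± 0.13 (adjusted p = 0.0197). The AI and AD values of these 3 genes did not overlap, as for 22.3% of all genes in this direction. The abundant Hsp70 and Hsp90 did not pass the test: HSPA5 had 132.5 and 138 RPKM in AI cells, against 115 and 156 RPKM in AD cells, and its change had a 95% interval of -0.29 to 0.31. HSP90B1 had 504 and 719 RPKM in AI cells, against 641 and 812 RPKM in AD cells, with an interval of -0.64 to 0.12. The groups overlapped for HSPA5, HSP90B1, PDIA6 and SDF2L1, and the log2 changes of PDIA6 and SDF2L1 were -0.24 and 0.39.

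By this test 6 of 10 genes were called, 3 in each direction, while 34.6% of the 14227 genes tested were called, 22.2% higher and 12.4% lower. The median log2 change was -0.11 over the 10 genes and 0.13 over all genes. The fit shares 1 estimate of the spread over all 12 libraries. When only the 4 untreated libraries entered, 0 of the 10 genes were called, with adjusted p = 0.0592 for XBP1, 0.0593 for PDIA4 and 0.0689 for HERPUD1, and 1106 genes in all. With libraries scaled by a trimmed mean of log ratios (TMM), or by quantile normalization, PDIA6 was also called lower (-0.42 and -0.31). DNAJB9 was not called under TMM, quantile or non-mitochondrial scaling (adjusted p = 0.0622 at the lowest). CALR held rank 13 in each of the 4 untreated libraries, so quantile normalization, which gives equal ranks equal values, left no difference. Leaving out single libraries gave 4 to 6 calls, and DNAJB9 was not called in 3 of these 4 fits.

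With mock siRNA CALR, EDEM1, PDIA6, PDIA4 and HSPA5 were lower in AI cells and none of the 10 genes was called higher. CALR had 1223 and 1204 RPKM in AI cells, against 3312 and 2656 RPKM in AD cells, a log2 change of -1.29 ± 0.13 (adjusted p = 3.67e-05, limma). EDEM1 had 2.92 and 2.80 RPKM in AI cells, against 6.71 and 6.71 RPKM in AD cells, a log2 change of -1.10 ± 0.13 (adjusted p = 8.93e-05). The AI means were 40.7% and 42.6% of the AD means for CALR and EDEM1. PDIA6 had 109 and 111 RPKM in AI cells, against 188 and 192 RPKM in AD cells (log2 change -0.78 ± 0.13). PDIA4 had 114 and 109 RPKM in AI cells, against 175 and 181 RPKM in AD cells (-0.68 ± 0.10). HSPA5 had 55.9 and 57.7 RPKM in AI cells, against 84.0 and 89.5 RPKM in AD cells (-0.61 ± 0.13, adjusted p = 0.00361). The groups did not overlap for any of these 5 genes, as for 58.4% of all genes in this direction. HSP90B1 differed by -0.06, with 403.5 and 408 RPKM in AI cells, against 425 and 423 RPKM in AD cells. XBP1, DNAJB9, HERPUD1 and SDF2L1 had log2 changes of 0.12, 0.30, -0.12 and -0.43 that did not pass the test.

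Of the 10 genes 5 were called, all lower, where 55.7% of all genes were called, 43.5% lower and 12.2% higher. The scale matters here, because the median gene itself was lower in AI cells by a log2 change of -0.41, against -0.52 for the 10 genes. Relative to that median CALR lay at -0.88, EDEM1 at -0.69, PDIA6 at -0.37, PDIA4 at -0.27 and HSPA5 at -0.20, while XBP1 lay at 0.53, DNAJB9 at 0.70, HERPUD1 at 0.29 and HSP90B1 at 0.35. With TMM scaling, 3 genes were called higher in AI cells (XBP1 0.61, DNAJB9 0.76, HERPUD1 0.36) and 2 lower (CALR -0.80, EDEM1 -0.66). TMM scaling moves all genes of a library by 1 factor. The shares over all genes given here and below come from the main fit and do not apply to counts under TMM. Counts under TMM are therefore not read as a result about the 10 genes. CALR and EDEM1 were called lower under TMM, quantile and non-mitochondrial scaling alike, while HSPA5, PDIA4 and PDIA6 were not called under TMM.

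With siEZH2 the 5 genes that were lower with mock siRNA were again lower in AI cells, HSP90B1 was lower too, and XBP1 was higher. CALR had 1305 and 1260 RPKM in AI cells, against 3043 and 2950 RPKM in AD cells, a log2 change of -1.22 ± 0.13 (adjusted p = 5.08e-05, limma). PDIA6 had 101 and 94.8 RPKM in AI cells, against 195.5 and 199 RPKM in AD cells, a log2 change of -1.01 ± 0.13 (adjusted p = 0.000135). HSP90B1 had 252 and 271 RPKM in AI cells, against 395 and 387 RPKM in AD cells, a log2 change of -0.58 ± 0.17 (adjusted p = 0.0147). EDEM1, PDIA4 and HSPA5 were also lower, by log2 changes of -0.96, -0.82 and -0.52. XBP1 was the 1 gene called higher, with 136 and 153 RPKM in AI cells, against 114 and 115 RPKM in AD cells, a log2 change of 0.33 ± 0.11 (adjusted p = 0.0281). This call was lost under quantile normalization (0.22, adjusted p = 0.2045) and non-mitochondrial scaling (0.16, adjusted p = 0.329). In all, 7 genes were called, 6 of them lower, where 57.7% of all genes were called, 47.1% lower and 10.6% higher, and the median gene lay at -0.48, against -0.55 for the 10 genes. TMM scaling called 3 higher (XBP1 0.89, DNAJB9 0.78, HERPUD1 0.60) and 4 lower (CALR -0.66, EDEM1 -0.47, PDIA6 -0.45, PDIA4 -0.27), and moved HSPA5 to 0.04 and HSP90B1 to -0.02. Under quantile normalization EDEM1 was not called (-0.24), and DNAJB9 (0.82) and HERPUD1 (0.35) were called higher. Leaving out single libraries gave 5 to 6 calls.

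**Figure D3:**
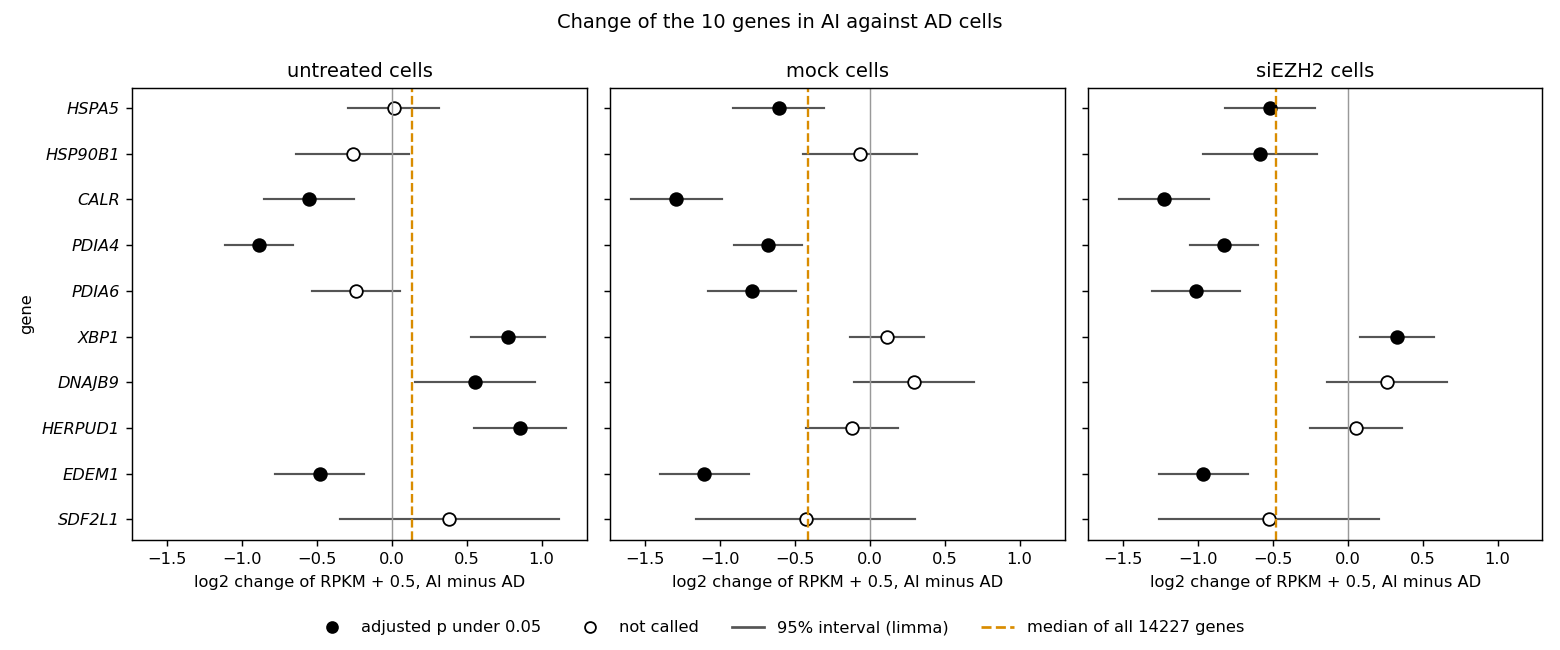
Log2 change of RPKM + 0.5, AI minus AD (horizontal axis), of the 10 genes in untreated, mock and siEZH2 cells, with 95% limma intervals; filled points passed the adjusted p of 0.05 and the dashed line is the median of all 14227 genes. CALR, PDIA4 and EDEM1 lie left of the median of all genes in the 3 states, and XBP1, DNAJB9 and HERPUD1 lie right of it.

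Ratios of 2 genes in the same library do not change when a library is scaled by 1 factor. They are given as descriptions with no test, since the pairs were picked after the values were seen. A separation of AI from AD libraries in these pairs thus follows in part from their choice. No share over all pairs of genes was computed. Of 5 ratios computed, XBP1 over CALR, XBP1 over PDIA4, DNAJB9 over HSPA5 and HERPUD1 over CALR were higher in both AI libraries than in both AD libraries of each state, and HSP90B1 over HSPA5 was not. XBP1 stood at 4.81 and 4.68% of the CALR level in untreated AI cells, against 1.81 and 1.97% in untreated AD cells. With mock siRNA it stood at 9.85 and 10.2% in AI cells, against 3.15 and 4.53% in AD cells, and with siEZH2 at 10.4 and 12.1% in AI cells, against 3.76 and 3.91% in AD cells. The AI and AD values did not overlap in any state. XBP1 over PDIA4 gave 73.6 and 90.4% in untreated AI cells, against 24.5 and 26.95% in untreated AD cells. DNAJB9 stood at 19.2 and 17.1% of the HSPA5 level in AI cells with mock siRNA, against 8.79 and 10.3% in AD cells with mock siRNA. In untreated cells this ratio was 4.60 and 5.12% in AI cells, against 3.19 and 3.23% in AD cells. HSP90B1 stood at 380.5 and 521.8% of the HSPA5 level in untreated AI cells, against 559.1 and 518.9% in untreated AD cells, and at 421.8 and 448.1% in AI cells with siEZH2, against 461.5 and 446.8% in AD cells with siEZH2, so the cells overlapped in both states. With mock siRNA it stood at 721.3 and 708.1% in AI cells, against 505.2 and 472.4% in AD cells.

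**Figure D4:**
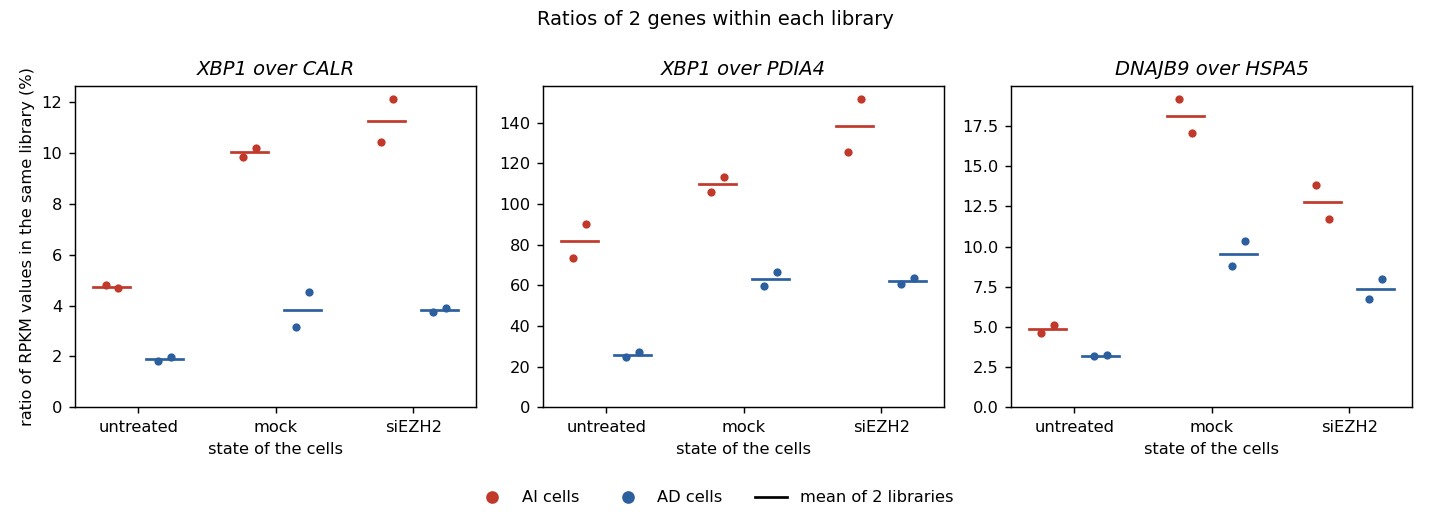
Ratio of 2 RPKM values from the same library, in percent (vertical axes, starting at 0), for XBP1 over CALR, XBP1 over PDIA4 and DNAJB9 over HSPA5 in AI cells (red) and AD cells (blue) in each state; points are libraries and lines the means of 2. In every panel and state both AI points lie above both AD points, in pairs that were picked after the values were seen.

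Set beside untreated cells, mock-transfected cells had lower levels of HSPA5, HSP90B1 and PDIA4 in AI and in AD cells; of these calls only those of HSPA5 held in both kinds of cell under TMM, quantile and non-mitochondrial scaling. Both share the mock and untreated libraries with the comparisons of AI with AD cells. HSPA5 fell in AI cells, to 55.9 and 57.7 RPKM with mock siRNA against 132.5 and 138 RPKM untreated, a log2 change of -1.24 (adjusted p = 4.42e-05, limma). In AD cells HSPA5 fell to 84.0 and 89.5 RPKM with mock siRNA against 115 and 156 RPKM untreated, a log2 change of -0.62 (adjusted p = 0.00444). CALR fell in AI cells (-0.94, adjusted p = 0.000252) and in AD cells had a log2 change of -0.20, which did not pass the test. Its direction in AD cells depended on the scaling, with -0.61 under TMM, -0.43 under non-mitochondrial scaling and 1.20 under quantile normalization (adjusted p = 1.47e-05), each of them called. Quantile normalization sets values by rank, and CALR held rank 13 in both untreated AD libraries and ranks 3 and 4 with mock siRNA. XBP1 rose in AD cells, with 104 and 120 RPKM with mock siRNA against 61.3 and 67.8 RPKM untreated (0.79, adjusted p = 0.000398). In AI cells XBP1 had a log2 change of 0.14, which did not pass. HERPUD1 was called higher in AD cells (0.75), but not under quantile normalization (adjusted p = 0.0535). DNAJB9 was called higher in both (0.61 in AI cells and 0.87 in AD cells), but not in AI cells under non-mitochondrial scaling (0.22, adjusted p = 0.406), nor in AD cells under TMM (0.49) or quantile normalization (0.51). Mitochondrial genes took a smaller share in transfected than in untreated libraries, as given above, and their part in these changes was not tested beyond that scaling. In AI cells 6 of 10 genes were called, 1 higher and 5 lower (57.1% of all genes called, 21.5% higher and 35.5% lower; median -0.40 over the 10 genes and -0.20 over all genes). In AD cells 7 were called, 4 higher and 3 lower (45.4% of all genes called, 37.6% higher and 7.73% lower; median 0.17 over the 10 genes and 0.35 over all genes). Without AI mock replicate 1 the count in AI cells was 3, and with quantile normalization or with only the groups compared the count in AD cells was 4. With only the groups compared, 4550 genes in all were called in AD cells. EDEM1 was not called in AI cells under TMM or quantile normalization. Under TMM scaling HSP90B1 and PDIA4 were not called in AI cells, PDIA6 was not called in AD cells, and XBP1 in AI cells (0.40) was. Under non-mitochondrial scaling HERPUD1 (-0.63), PDIA6 (-0.49) and SDF2L1 (-0.93) were also called lower in AI cells, and PDIA6 was not called in AD cells.

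Whether the AI to AD difference itself changed with mock transfection was tested as a difference of differences. It passed for 6 of 10 genes, all in the negative direction: HERPUD1 -0.97 (adjusted p = 0.00248), CALR -0.74 (0.00965), XBP1 -0.66 (0.00644), HSPA5 -0.62 (0.0216), EDEM1 -0.62 (0.02004) and PDIA6 -0.54 (0.0333), all by limma. In this contrast 50.2% of all genes were called, 41.2% in the negative and 8.99% in the positive direction, and the median was -0.62 over the 10 genes and -0.54 over all genes. Under TMM scaling none of these 6 genes was called, and HSP90B1 and PDIA4 were called in the positive direction (0.87 and 0.88). The count was 3 with only the 4 groups compared in the fit (6511 genes called in all), and 3 without mock replicate 2 of AI or of AD cells.

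With siEZH2 against mock siRNA, 0 of the 10 genes passed the test in AI cells and 0 in AD cells. A drop of EZH2 RNA itself passed the test in neither kind of cell, and in AD cells its values overlapped. These counts therefore do not show what a loss of EZH2 would do. In AI cells HSP90B1 had 252 and 271 RPKM with siEZH2, against 403.5 and 408 RPKM with mock siRNA, a log2 change of -0.64 with a 95% interval of -1.02 to -0.26 (adjusted p = 0.0875, limma), and the groups did not overlap, as for 32.4% of all genes in this direction. XBP1 in AI cells had 136 and 153 RPKM with siEZH2, against 120.5 and 123 RPKM with mock siRNA (0.24, adjusted p = 0.273). Over all genes 1.46% were called in AI cells (208 of 14227; 0.0703% higher and 1.39% lower) and 0.0141% in AD cells (2 of 14227); at an unadjusted p under 0.05 the counts were 2675 and 544 over all genes, with HSP90B1 and DNAJB9 among them in AI cells and EDEM1 in AD cells. EDEM1 stood at 5.48 and 4.85 RPKM in AD cells with siEZH2, against 6.71 and 6.71 RPKM with mock siRNA (-0.35, adjusted p = 1.00). CALR had a log2 change of 0.08 in AI cells, with an interval of -0.22 to 0.38, and of 0.01 in AD cells, with an interval of -0.29 to 0.32. The difference of the siEZH2 effect between AI and AD cells passed for 0 of 10 genes and 0 of 14227 genes (0%), with 976 genes at an unadjusted p under 0.05.

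Other genes of the pathway came from lists that covered its other arms. These lists were chosen with earlier results of these data known. Their counts beside the shares over all genes are therefore descriptions and not tests of the arms. Of 9 tested genes of the PERK and ATF4 arm 8 were higher and 0 lower in AI than in AD cells with mock siRNA, with a median log2 change of 1.54, where 12.2% of all genes were higher. With siEZH2 8 were higher and 0 lower, with a median of 2.06, where 10.6% of all genes were higher. EIF2AK3, the gene of PERK itself, had 2.20 and 2.12 RPKM in AI cells with mock siRNA, against 4.02 and 3.17 RPKM in AD cells. With siEZH2 EIF2AK3 had 1.70 and 1.67 RPKM in AI cells, against 3.68 and 3.33 RPKM in AD cells. What drove the changes of the list was not tested. ATF3, a stress-induced transcription factor, had 971 and 963 RPKM in AI cells with mock siRNA, against 148 and 150 RPKM in AD cells with mock siRNA (log2 change 2.70, adjusted p = 9.29e-08, limma). CHAC1, a glutathione-degrading enzyme induced through ATF4, had 19.0 and 17.1 RPKM in AI cells, against 2.69 and 2.55 RPKM in AD cells (2.57). The calls on this list were 8 to 9 higher and 0 lower with mock siRNA under TMM, quantile and non-mitochondrial scaling too. In untreated cells 5 of the 9 were higher in AI cells, led by ASNS, asparagine synthetase (1.18), and SESN2, sestrin 2 (1.11), and 2 were lower (VLDLR -0.74 and PPP1R15A -0.66), where 22.2% of all genes were higher and 12.4% lower.

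Among 8 sensors and transcription factors 5 were lower and 1 higher in AI cells with mock siRNA, where 43.5% of all genes were lower and 12.2% higher. In untreated AI cells 1 was lower and 2 were higher, where 12.4% of all genes were lower and 22.2% higher. With mock siRNA ATF6B, a relative of ATF6, had 2.33 and 3.18 RPKM in AI cells, against 7.42 and 7.59 RPKM in AD cells (-1.31). MBTPS1, the protease that cuts ATF6, had 8.08 and 8.26 RPKM in AI cells with mock siRNA, against 15.5 and 18.6 RPKM in AD cells (-1.01). In untreated cells ATF6B had 12.83 and 12.79 RPKM in AI cells, against 8.09 and 10.94 RPKM in AD cells. MBTPS1 had 24.2 and 23.6 RPKM in untreated AI cells, against 20.5 and 20.7 RPKM in untreated AD cells. CREB3L2, a related membrane-bound factor, was higher (0.53) with mock siRNA and lower (-0.95) in untreated AI cells, where CREB3 (0.74) and EIF2AK3 (0.50) were higher. Under TMM scaling 3 of the 8 were lower and 2 higher with mock siRNA, counts to which the shares over all genes above do not apply.

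Of 17 other folding factors 6 were lower and 1 higher in untreated AI cells, where 12.4% of all genes were lower and 22.2% higher. In AI cells with mock siRNA 6 were lower and 1 higher, where 43.5% of all genes were lower and 12.2% higher. ERO1A, the oxidase that recharges disulfide isomerases, changed sides: it had 3.34 and 5.14 RPKM in untreated AI cells, against 12.5 and 26.6 RPKM in untreated AD cells (-2.01), and 97.0 and 104 RPKM in AI cells with mock siRNA, against 27.7 and 34.7 RPKM in AD cells with mock siRNA (1.68). Its relative ERO1B was lower in untreated AI cells (-1.42) and DNAJC3, an HSPA5 cochaperone, higher (0.97). PDIA3, the disulfide isomerase that works with CALR, was lower with mock siRNA (-1.02), as was MANF, a secreted ER protein (-0.83). Under TMM scaling this list turned to 5 higher and 3 lower with mock siRNA, counts to which the shares over all genes above do not apply.

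Of 15 genes of ER-associated degradation 5 were higher and 1 lower in untreated AI cells, where 22.2% of all genes were higher and 12.4% lower. With mock siRNA 1 was higher and 8 lower, where 12.2% of all genes were higher and 43.5% lower, and the median was -0.44 over the list and -0.41 over all genes. UFD1 and NPLOC4, the partners that recruit the segregase VCP, went opposite ways with mock siRNA (1.07 and -1.61); in untreated AI cells UFD1 (1.32) and VCP (0.90) were higher and OS9, an ER lectin, lower (-0.59). EDEM3, a relative of EDEM1, had 0.23 and 0.25 RPKM in AI cells with mock siRNA, against 2.15 and 2.62 RPKM in AD cells with mock siRNA (-1.96). Of 20 genes of translocation and glycosylation 3 were higher and 3 lower in untreated AI cells, and 3 higher and 3 lower with mock siRNA, beside the same shares over all genes. SEC11C, a signal peptidase subunit, had 259 and 242 RPKM in untreated AI cells, against 52.4 and 45.7 RPKM in untreated AD cells (2.34), and SPCS3 of the same complex was higher (0.79) while DDOST (-0.70) and RPN1 (-0.43) of the oligosaccharyltransferase were lower. With mock siRNA SEC61G (1.23) and SEC11A (0.56) were higher and SEC61A1 (-0.81) and SEC62 (-0.69) lower. Under TMM scaling the degradation list gave 4 higher and 4 lower with mock siRNA and the translocation list 13 higher and 1 lower. The shares over all genes above do not apply to these TMM counts, so they are not read as a result about the lists. With only the 4 untreated libraries in the fit each of the 5 lists held at most 1 called gene, and with siEZH2 against mock siRNA 2 genes of the lists were called lower in AI cells and 0 in AD cells.

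Across the 12 RNA-seq libraries correlations between the genes are given as descriptions, since the libraries share 6 groups and their scaling. On log2 values CALR correlated with EDEM1 (Pearson r = 0.94) and PDIA4 (0.91), HSPA5 with HSP90B1 (0.86), and XBP1 with HERPUD1 (0.86) and DNAJB9 (0.77). XBP1 against PDIA4 gave -0.84. The mean profile of the 10 genes was followed most closely by EDEM1 (0.92) and CALR (0.92), which are themselves part of it, and XBP1 and DNAJB9 ran against it (-0.47 and -0.45). Among 6648 other genes with a mean of at least 5 RPKM, the profiles most like that mean were those of GEMIN4 (0.993), TRIM56 (0.991), NEK9 (0.991), NSUN2 (0.991) and PRKD1 (0.990).

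In RIP none of the 10 RNAs passed the test for EZH2 antibody against IgG. CALR was the most abundant of them, with 66.6 and 148 RPKM in the EZH2 RIP of AI cells, against 153 and 568 RPKM in IgG of AI cells. In AD cells it had 59.3 and 102.5 RPKM with EZH2 antibody, against 202 and 148.5 RPKM with IgG. The EZH2 libraries thus lay below the IgG libraries in both kinds of cell, as for 4.08% of all genes in AI and 12.4% in AD cells, but the log2 changes of -1.57 (95% interval -3.10 to -0.04, adjusted p = 0.224, limma) and -1.15 (-2.68 to 0.38, adjusted p = 0.611) did not pass the test. XBP1 had 8.19 and 25.6 RPKM with EZH2 antibody in AI cells, against 8.79 and 30.1 RPKM with IgG, and HSPA5 had 11.7 and 17.3 RPKM with EZH2 antibody, against 26.3 and 6.29 RPKM with IgG. EDEM1, the rarest of the 10 genes in most RNA-seq groups, had 7.38 and 16.0 RPKM with EZH2 antibody in AI cells, against 4.37 and 7.75 RPKM with IgG, and the groups overlapped.

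In the 3 RIP comparisons, EZH2 antibody against IgG in AI cells, the same in AD cells, and EZH2 RIP of AI against AD cells, 0 of 10 genes and 0 of 13667 genes (0%) were called. At an unadjusted p under 0.05 the counts over all genes were 2930, 1383 and 233, with CALR in AI cells as the 1 member. The median change of the 10 genes was -0.21 in AI and -0.28 in AD cells, against 0.88 and 0.43 over all genes. In IgG replicate 2 of AI cells a value of 0 had rank 6961 among 25035 listed genes, so most genes were at 0. These medians are therefore not read as a result about the 10 genes, and the part of such zeros was not tested. A single read in a gene of 2000 bases was worth 6.14 RPKM in the shallowest IgG library of AI cells. SDF2L1 was listed at 0 there and DNAJB9 at 0 in IgG replicate 1 of AD cells. The intervals are wide, such as -2.01 to 1.68 for XBP1 and -1.48 to 1.73 for HSPA5 in AI cells. In simulated RIP data the same fit recovered 0% of added log2 changes of 1 or 2 between AI and AD cells. The 0 calls therefore do not show that a change is absent. The EZH2 RIP libraries of a group also differed from each other, as the XBP1 and CALR values above show, and what widened the intervals was not tested.

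**Figure D5:**
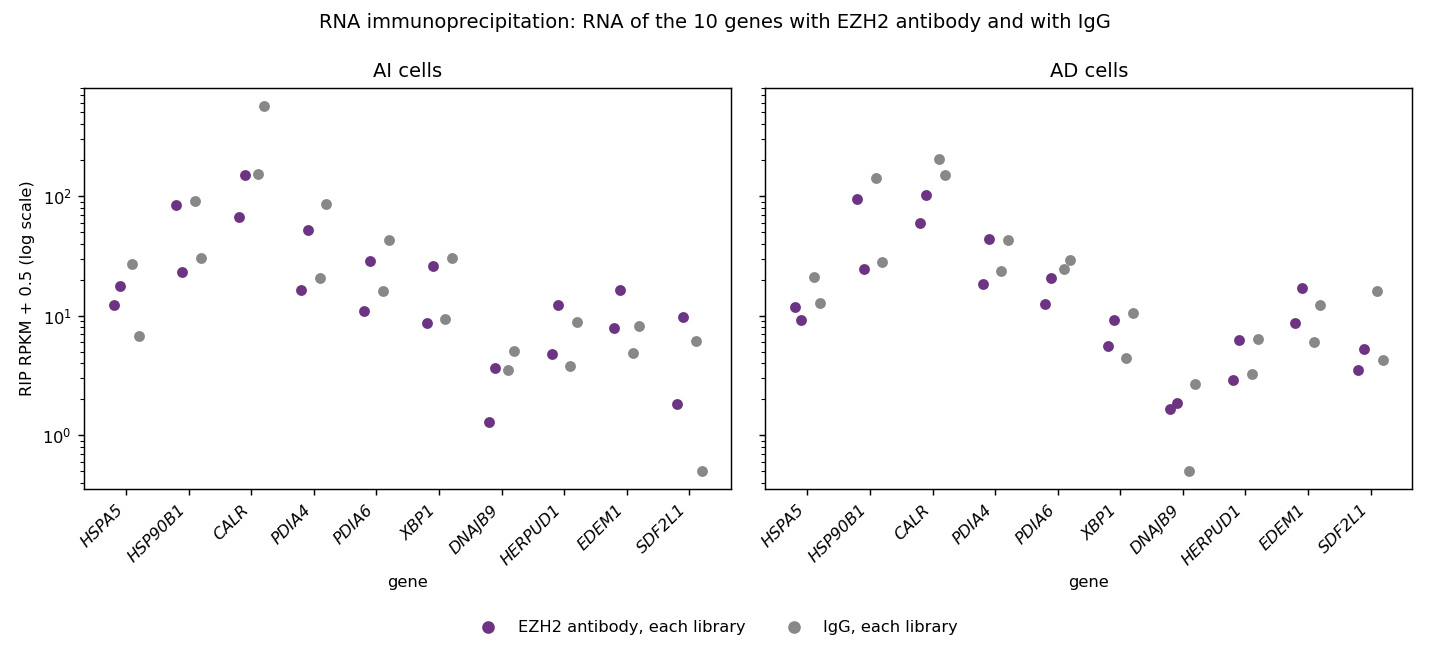
RIP level of the 10 genes as RPKM + 0.5 on a log axis, for each library with EZH2 antibody (purple) and with IgG (grey) in AI cells (left) and AD cells (right). CALR is the only gene whose EZH2 points lie below both IgG points in both panels.

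At the chromatin, 9 of the 10 genes held no H3K27me3 peak between 5000 bases before the gene start and the gene end. Of 15813 protein-coding genes 23.4 and 27.7% held such a peak in the 2 AI lists and 21.1 and 21.7% in the 2 AD lists. The exception was PDIA6, with 1 to 3 peaks in each of the 4 lists; the authors' best scores were 142.9 and 197 in AI cells, 116 and 203 in AD cells. In every list 1 of them overlapped the 1000 bases on each side of the outermost annotated start of the gene, such as chr2:10836459-10841390 in AI replicate 1 (GRCh38). The peaks at this start scored 142.9 and 125 in AI replicates 1 and 2, and 50.7 and 203 in AD replicates 1 and 2. Only that of AD replicate 2 lay in the upper part of the scores of its list, and the lowest score in the list of AD replicate 1 was 50.0. In such windows around gene starts 6.87 and 15.3% of genes held a peak in the AI lists and 8.44 and 9.97% in the AD lists. The listed start of PDIA6 with the ER stress response element lay 24927 bases inside the gene, and no list held a peak within 1000 bases of it. Within 1000 bases of the other listed start, 5227 bases inside, AI replicate 2 and AD replicate 2 held a peak.

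EZH2 peaks were present over 6 of the 10 genes in at least 1 list, and in none within 1000 bases of the gene start, where 1.02% of protein-coding genes held a peak in the AI list and 8.90 and 1.90% in the AD lists. No share over all genes was computed for a peak in at least 1 list, but AD replicate 1 alone held peaks over 51.5% of protein-coding genes. The 6 genes are therefore not read as a result about the members. In the AI list PDIA6 held 1, where 22.9% of protein-coding genes held a peak. In AD replicate 1 HERPUD1, PDIA4, PDIA6 and CALR held peaks (51.5% of protein-coding genes), and in AD replicate 2 HSPA5, PDIA4 and EDEM1 (25.2%). The peak over CALR had the best score of them in AD cells (90.8) and its centre lay 1682 bases after the start. PDIA4 was the only gene with EZH2 peaks in both AD lists, at different places. The lists differ in length (11933 peaks in AI cells, 53911 and 12399 in AD cells), so the counts are not compared between AI and AD cells.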

How the data were processed

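The deposited tables hold RPKM values (reads per kilobase of gene, scaled to mapped reads) for 12 RNA-seq and 8 RIP libraries, computed by the authors. The peak lists hold 1 score per peak, also the authors' own; lists are per sample. The submitters' processing notes name cutadapt, TopHat2, Bowtie2, edgeR and GRCh38, without versions or roles. RPKM is relative to each library's total, so an abundant RNA that changes moves all others; depth was estimated from steps between low values.

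Genes with at least 0.5 RPKM in at least 2 libraries were tested on log2(RPKM + 0.5) with limma 3.58.1 (trend, R 4.3.3) in 1 fit per table, with Benjamini-Hochberg adjustment over 14227 or 13667 genes, called at 0.05. A fold change on this scale understates changes of low genes. The code was tested on simulated data with added changes. For AI against AD with mock siRNA it recovered 61% of log2 changes of 1 and 94% of those of 2, with 10 false calls. For EZH2 RIP of AI against AD it recovered 0% of either size. Replicates are not stated to be separate cultures, so p-values measure the spread between these libraries, which may be technical. Alternatives were other pseudocounts, filters and scalings, only the groups compared, a replicate block and leaving out each library.

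The 10 genes and all lists were chosen with earlier results of these data known. All 10 genes are named throughout; of each other list, the 2 largest rises and falls among called genes, in untreated and mock cells. Promoters came from RefSeq (GRCh38.p14), searched with Python 3.11.15. Peaks were counted by overlap of at least 1 base. Inputs were not analysed here. Some luminal markers are not reported here.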

Additional observations from a re-analysis of the deposited data

Results flagged for a closer look

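The difference between AI and AD cells itself differed between mock-transfected and untreated cells for 6 of the 10 genes (limma, difference of differences on the log2 scale, mock minus untreated). The values were -0.62 for HSPA5, -0.66 for XBP1, -0.97 for HERPUD1, -0.54 for PDIA6, -0.74 for CALR and -0.62 for EDEM1. The median of all genes in the same contrast was -0.54, and 0 of these 6 genes were called under TMM scaling. Transfection and library set cannot be told apart.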

How the results depend on the processing

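Of 165 alternative values of the 14 counts, 157 kept within 1.5 times the main count and 8 moved. Counts of 0 for the siEZH2 effects, their difference and the RIP comparisons are among those kept. Each count adds genes called higher and lower, so a kept count can hide changed directions. With mock siRNA, TMM scaling called genes higher in AI cells where the main fit called 0 higher. In untreated cells 0 of 10 genes were called in AI against AD cells with only the groups compared. For mock against untreated AD cells the count was 4 under quantile normalization and 4 with only the groups compared. The change of the AI to AD difference gave 2 calls under TMM scaling and 3 with only the groups compared. With only the groups compared, these comparisons had 1106, 4550 and 6511 genes called in all, in that order. Leaving out single libraries gave 4 to 6 calls in untreated, 5 to 5 in mock and 5 to 6 in siEZH2 cells for AI against AD, 3 to 7 and 6 to 7 for mock against untreated AI and AD cells, and 3 to 7 for the change of the difference. It gave 0 for both siEZH2 effects, their difference and the RIP comparisons.

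Changes of sign, none called under the alternative but HERPUD1 in mock cells, were as follows for AI against AD. In untreated cells HSPA5 came to -0.0264 under quantile normalization and -0.168 under TMM, and HSP90B1 to 0.0275 under quantile normalization; without single libraries HSPA5 ranged over -0.21 to 0.236 and SDF2L1 over -0.10 to 0.867. In mock cells TMM gave HSP90B1 0.428, HERPUD1 0.36 and SDF2L1 0.0592, quantile normalization gave HERPUD1 0.154 and non-mitochondrial scaling gave XBP1 -0.0468. In siEZH2 cells TMM gave HSPA5 0.0409 and SDF2L1 0.0298, non-mitochondrial scaling gave HERPUD1 -0.104, and without single libraries HERPUD1 ranged over -0.00436 to 0.116. Among the 6 genes called in the change of the difference TMM gave HSPA5 0.0487, XBP1 0.0139 and PDIA6 0.127, and quantile normalization gave EDEM1 0.229. The cause was not tested.

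With the replicate number as a block, 1 term shared by all groups, 6, 5 and 7 genes were called in untreated, mock and siEZH2 cells for AI against AD, as without it. A shared term cannot take up a pairing that is present in only some groups. These counts therefore do not show how far such a pairing matters, which was not tested. Deviations of same-numbered libraries correlated at 0.70 between untreated AI and AD cells and at 0.71 between their EZH2 RIP libraries, and at most at 0.13 between other RNA-seq groups; the labels give only the shared number. The number of genes with an EZH2 peak was 4 in the upper-score parts of the lists, against 6, and no share over all genes was computed for either count.

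CALR in mock against untreated AD cells turned to 1.20 under quantile normalization, which sets values by rank, and was called there. With 2 libraries a group and shallow IgG libraries the RIP values are imprecise; how much of this is depth was not tested.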
